A study of Mus musculus with 6 samples.

Results

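The platelet-derived growth factor (PDGF) family was examined in mouse mesenchymal stromal cells (MSCs) as 6 genes: the ligand genes Pdgfa, Pdgfb, Pdgfc and Pdgfd, and the receptor genes Pdgfra and Pdgfrb. They were found by symbol, 6 of 23420 genes in the table. The family was selected on the difference between the library labels, in which Pdgfd had the largest rise among the genes called, so the MSC-TPr against Ctl MSC values of these 6 genes are given as a description and support nothing. The MSCs were grown from femur marrow of female C57BL/6 mice and were transduced with the retroviral AP2 construct, which carries eGFP. Ctl MSC (3 libraries) received the empty construct, and MSC-TPr (3 libraries) received the same construct coding for the thymoproteasome subunits β1i, β2i and β5t. The methods do not say how many mice or cultures the libraries stand for, so p-values measure the spread between these libraries, which may be technical.

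Between 16158756 and 22158887 reads per library lay on genes, and 3 reads, taken as the smallest detectable amount, equal 0.139 to 0.181 CPM. CPM stands for read counts scaled to a common library size. The libraries did not sort by label alone. The first principal component held 58.5% of the variance and placed Ctl MSC 1 beside MSC-TPr 2 and 3, and MSC-TPr 1 beside Ctl MSC 2 and 3. The mean level of 20 cell division genes followed it, at 6.54 to 6.62 log2 CPM in Ctl MSC 1 and MSC-TPr 2 and 3, and at 3.28 to 3.29 log2 CPM in the other 3 libraries. The second component followed the label. The transduced genes did not separate the labels: Psmb11 had 1 to 6 reads per library, Psmb9 0.554 to 3.38 CPM and Psmb10 8.38 to 27.8 CPM, with overlapping groups. Directions are therefore directions between library labels. For the PDGF genes they are given over all 6 libraries and again over the 4 libraries numbered 2 and 3, and for other genes the second value is given where its sign differs. Among those 4 libraries both Ctl MSC libraries have the low and both MSC-TPr libraries the high cell division level, so label and cell division level cannot be told apart there.

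PDGFs are secreted dimers that drive the growth, migration and survival of mesenchymal cells. PDGF-A and PDGF-B are the classical chains, released in active form, while PDGF-C and PDGF-D carry a CUB domain that must be cut off by proteases before they bind. PDGF-A and PDGF-C act mainly through the receptor tyrosine kinase PDGFRα, PDGF-D mainly through PDGFRβ, and PDGF-B through both. Both receptors are well-known markers of stromal and perivascular cells.

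Pdgfd and Pdgfc, which encode the CUB-domain ligands, were the members whose MSC-TPr libraries all lay above the Ctl MSC libraries. Their promoter windows are shown here because these genes moved in the same direction. Each is the RefSeq window in GRCm38.p6, the assembly that mm10 stands for, from 250 bases before to 50 bases after the annotated start. Pdgfd is at chr9:6168236-6168535 and Pdgfc at chr3:81036166-81036465, both on the plus strand. The GENCODE start used for Pdgfd below lies downstream of its window. Capitals mark a match to TATAAA, the letters known as the TATA box:
Pdgfd: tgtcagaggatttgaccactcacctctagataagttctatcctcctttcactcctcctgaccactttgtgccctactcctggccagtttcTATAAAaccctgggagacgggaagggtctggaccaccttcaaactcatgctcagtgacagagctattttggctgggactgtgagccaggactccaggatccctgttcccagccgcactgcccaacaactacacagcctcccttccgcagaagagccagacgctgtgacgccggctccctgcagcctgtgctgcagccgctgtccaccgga
Pdgfc: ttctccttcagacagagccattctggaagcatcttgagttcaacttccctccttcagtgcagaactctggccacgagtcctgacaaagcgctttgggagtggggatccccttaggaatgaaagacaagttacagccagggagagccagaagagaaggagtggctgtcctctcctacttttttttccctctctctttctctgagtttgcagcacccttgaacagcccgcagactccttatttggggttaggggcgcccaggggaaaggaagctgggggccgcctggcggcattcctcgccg

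Both windows were searched on both strands for the TATA box shown above and for 3 further motifs. These were the GC box, spelled GGGCGG, the CCAAT box, which is spelled as it is named, and the AP-1 site, spelled TGACTCA. The Pdgfd window held 1 match, the TATA box, whose first base is at position -160, and the Pdgfc window held 0. No match overlapped another. Among 32851 promoter windows of the same length, 13.6% held the TATA box, 35.7% the GC box, 37.4% the CCAAT box and 5.20% the AP-1 site on either strand. Pdgfd and Pdgfc were alike in base composition, with 56.7% and 55.0% GC and 8 CpG each, against a median of 52.7% GC and 7 CpG over all windows. The Pdgfa start sites (2 windows) were richer, with 67.0% and 73.3% GC and 24 and 37 CpG, and held 1 and 2 matches to the GC box. The Pdgfra window had 51.0% GC and 5 CpG. The search describes letters only.

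Pdgfd was the ligand gene that set the labels furthest apart. It lies on chromosome 9 of mm10 from 6168584 to 6378850 on the plus strand, with 7 exon blocks and no exon of another gene over them. It measured 9.55, 3.79 and 4.25 CPM in libraries 1, 2 and 3 of Ctl MSC, against 63.2, 155 and 123 CPM in those of MSC-TPr. The lowest MSC-TPr library stood well above the highest Ctl MSC library. The edgeR log2 fold change was 4.28 (SE 0.521) over all 6 libraries, the second highest of 11974 genes tested, and 5.12 (SE 0.186) over the libraries numbered 2 and 3. In RNA from a whole culture, a change in the number of cells that transcribe a gene and a change in RNA per cell cannot be told apart. Within each label the libraries differed too, by 2.52-fold in Ctl MSC and 2.46-fold in MSC-TPr between the highest and the lowest. The highest Ctl MSC library (1) and the highest MSC-TPr libraries (2 and 3) were those with the high cell division level. With that level as a covariate, the log2 fold change was 3.93 (SE 0.159).

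Pdgfc, on chromosome 3 from 81036416 to 81214040, measured 57.5, 61.2 and 60.5 CPM in libraries 1, 2 and 3 of Ctl MSC, against 76.2, 84.8 and 100.1 CPM in those of MSC-TPr. The Ctl MSC libraries lay within 1.06-fold of each other, and the MSC-TPr libraries did not overlap them. Its log2 fold change over 6 libraries was 0.54 (SE 0.154), and it was 0.61 (SE 0.127) over the libraries numbered 2 and 3. Within MSC-TPr, Pdgfc was higher in the libraries with the high cell division level (2 and 3), while within Ctl MSC the library with the high level (1) was the lowest. An exon of Gm16000 lies on the opposite strand of Pdgfc, and the methods do not say whether counting used the strand.

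Pdgfa, which encodes the classical A chain, differed little. It lies on chromosome 5 from 138976014 to 138997370 on the minus strand, with an exon of 6330403L08Rik on the other strand. It measured 19.6, 15.4 and 17.6 CPM in libraries 1, 2 and 3 of Ctl MSC, against 17.6, 20.5 and 21.7 CPM in those of MSC-TPr. The groups overlapped. The log2 fold change over 6 libraries was 0.18 (SE 0.188), and it was 0.36 (SE 0.139) over the libraries numbered 2 and 3. Its highest values were in the 3 libraries with the high cell division level.

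Pdgfb, which encodes the B chain and lies on chromosome 15 from 79995874 to 80014977, was not detectable at this depth. It had 1 read in Ctl MSC 1 and 0 reads in the other 5 libraries, all under the 3 reads taken as detectable. This gene did not pass the filter on low counts, and no fold is given for it.

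**Figure D1:**
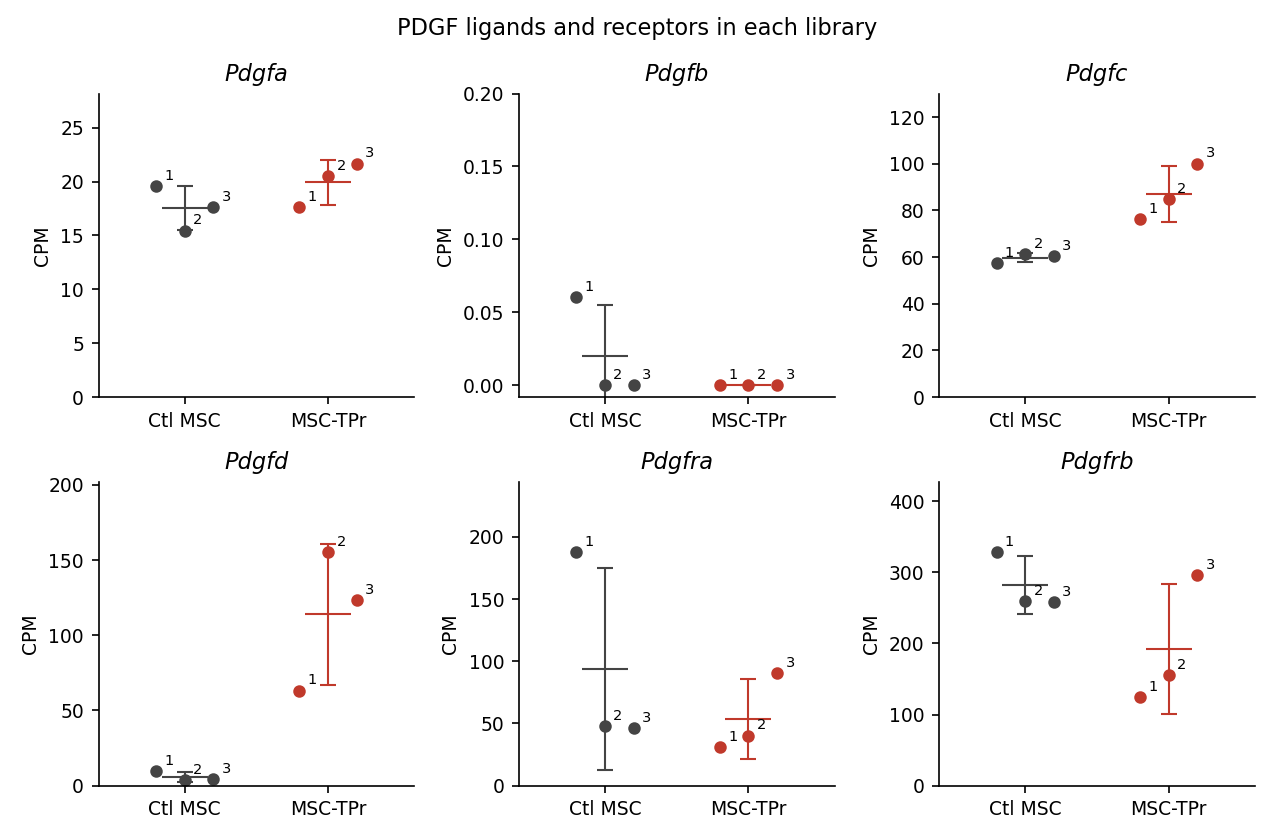
CPM (y axis, linear, a separate scale for each gene) of the 6 PDGF genes in Ctl MSC (grey) and MSC-TPr (red), with 1 point for each library, its number beside it, and the group mean ± SD (n = 3). Pdgfd rises from 3.79 to 9.55 CPM in Ctl MSC to 63.2 to 155 CPM in MSC-TPr, Pdgfc separates the groups by less, and Pdgfa, Pdgfra and Pdgfrb overlap.

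Of the 6 members, 1 (Pdgfd) was called higher in MSC-TPr over all 6 libraries and 0 lower, where a call needs an edgeR adjusted p below 0.05 and a change of 0.5 or more on the log2 scale. The same rule called 0.0251% of all tested genes higher and 0.401% lower. Over the libraries numbered 2 and 3, 2 members (Pdgfd and Pdgfc) were called higher and 0 lower, where 20.6% of all genes were called higher and 19.4% lower. In 2 members all MSC-TPr libraries lay above all Ctl MSC libraries and in 0 below, against 10.6% and 12.1% of all genes. With the replicate block, and in 4 of the 6 fits that each omit 1 library (Ctl MSC 2 or 3, MSC-TPr 2 or 3), 0 genes were called higher, so the Pdgfd call was lost there. Since the family was chosen with this difference known, nothing is read from these counts.

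The makeup of the ligand transcripts was compared per length, as TPM, a measure of transcript abundance that divides reads by the joined exon length of each gene. Summed over the ligand genes, the level was 75.5, 69.7 and 69.5 TPM in libraries 1, 2 and 3 of Ctl MSC, against 148, 243 and 241 TPM in those of MSC-TPr. Pdgfc held most of the ligand level in every Ctl MSC library, with a share of 61.3% ± 5.86 (SD, n = 3), followed by Pdgfa with 29.2% ± 1.72 and Pdgfd with 9.48% ± 4.52. In MSC-TPr Pdgfd came first with 58.9% ± 9.35, followed by Pdgfc with 29.9% ± 6.93 and Pdgfa with 11.2% ± 2.46 (SD, n = 3 each). The Pdgfd share was 14.7%, 6.62% and 7.14% in libraries 1, 2 and 3 of Ctl MSC, against 49.3%, 67.9% and 59.5% in those of MSC-TPr, and the groups did not overlap. The TPM of Pdgfd was 0.10 to 0.27 times that of Pdgfc in the Ctl MSC libraries and 1.34 to 2.95 times in the MSC-TPr libraries. Pdgfa and Pdgfc had lower shares in MSC-TPr, while their mean TPM was not lower, at 20.9 and 43.8 TPM in the Ctl MSC libraries, against 22.7 and 60.9 TPM in MSC-TPr. With the longest transcript as length, the Pdgfd share was 4.65% to 10.6% in the Ctl MSC libraries, against 40.1% to 59.3% in MSC-TPr.

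**Figure D2:**
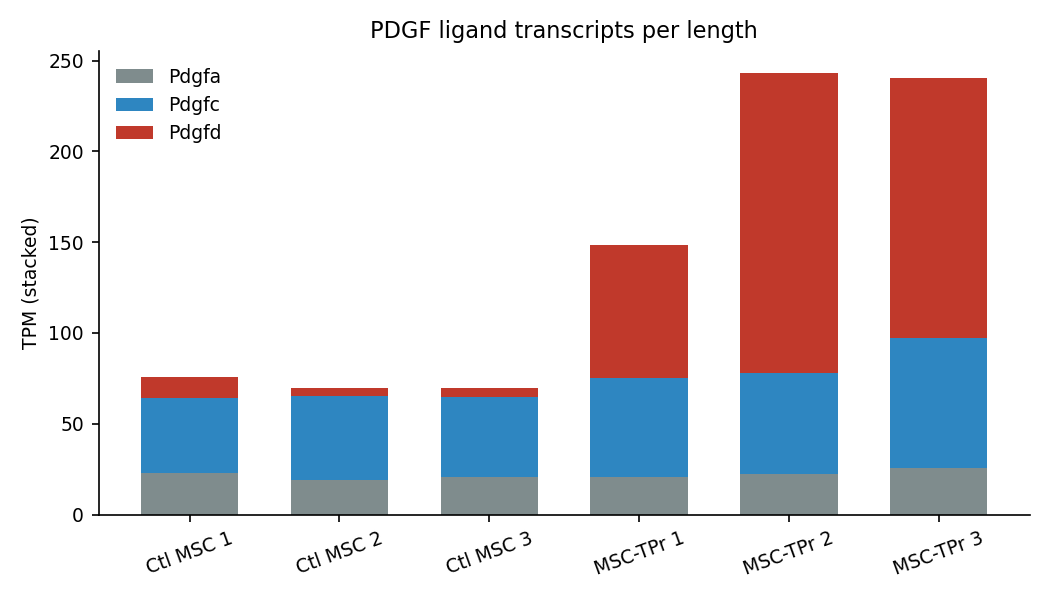
TPM of Pdgfa (grey), Pdgfc (blue) and Pdgfd (red) stacked in each of the 6 libraries; Pdgfb, at 0 to 0.0532 TPM, is too low to draw. The stacks reach 69.5 to 75.5 TPM in the Ctl MSC libraries, against 148 to 243 TPM in MSC-TPr, and the red part grows from 6.62% to 14.7% of the stack to 49.3% to 67.9%.

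Between the classical ligand genes, Pdgfa stood at 19.0 to 25.4 TPM. Set against Pdgfb at its detection limit of 3 reads per library, Pdgfa was at least 128.5-fold higher per length in each of 6 libraries. No p-value is read for this pair, since the constant limit fixes the direction.

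The receptor genes were both expressed in every library, and their labels overlapped. Pdgfra lies on chromosome 5 from 75152292 to 75198215 on the plus strand, and its exons share bases with Mir7025 on the same strand and with Gm42802 and Gm42803 on the other. It measured 188, 48.1 and 46.4 CPM in libraries 1, 2 and 3 of Ctl MSC, against 30.7, 40.2 and 90.5 CPM in those of MSC-TPr. Ctl MSC 1 was 4.05-fold above the lowest library of its label, and MSC-TPr 3 was 2.95-fold above MSC-TPr 1. The log2 fold change over all 6 libraries was -0.81 (SE 0.671), and it was 0.47 (SE 0.35) over the libraries numbered 2 and 3, so its sign rested on the libraries used. Without Ctl MSC 1 alone it was 0.19.

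Pdgfrb, on chromosome 18 from 61045150 to 61085061, measured 328, 260 and 258 CPM in libraries 1, 2 and 3 of Ctl MSC, against 125, 155 and 296 CPM in those of MSC-TPr. MSC-TPr 1 and 2 lay below every Ctl MSC library, while MSC-TPr 3 lay among them. The log2 fold change over 6 libraries was -0.55 (SE 0.337), and it was -0.19 (SE 0.287) over the libraries numbered 2 and 3. Without MSC-TPr 3 it was -1.004, and without each of the other libraries in turn it was -0.61 to -0.32. MSC-TPr 2 and 3, which both had the high cell division level, differed from each other in Pdgfra and Pdgfrb.

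**Figure D3:**
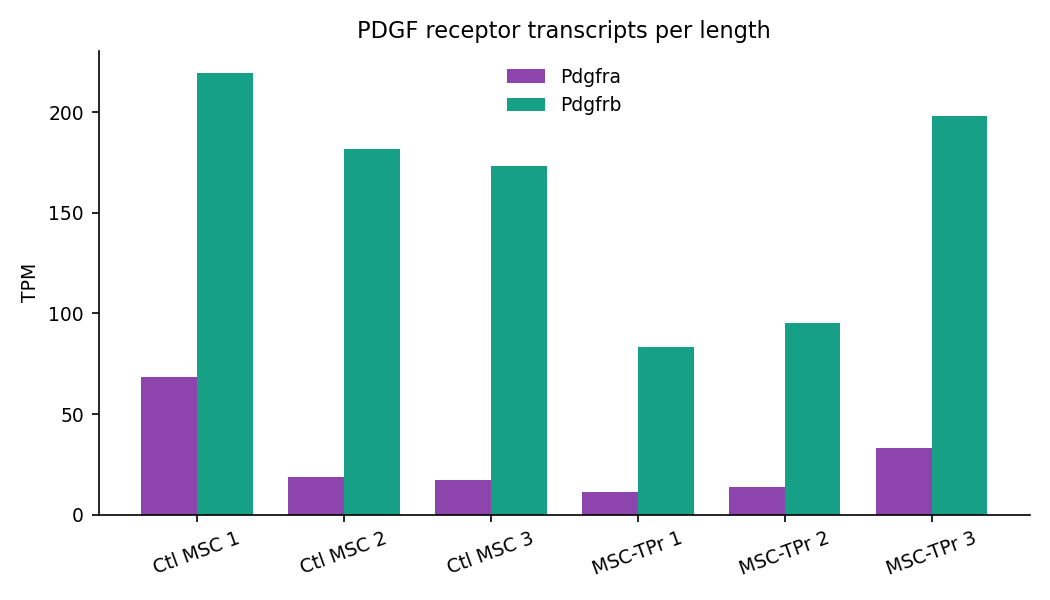
TPM of Pdgfra (purple) and Pdgfrb (green) in each of the 6 libraries. Pdgfrb is the taller bar in every library, and both bars are high in Ctl MSC 1 and MSC-TPr 3.

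Pdgfrb stood above Pdgfra per length in 6 of 6 libraries, at 83.2 to 220 TPM against 11.2 to 68.7 TPM. The ratio was 3.2, 9.88 and 10.2 in libraries 1, 2 and 3 of Ctl MSC, against 7.43, 7.07 and 5.99 in those of MSC-TPr, with a mean log2 difference of 2.77 ± 0.611 (SD, n = 6). This comparison does not use the labels. The exact two-sided sign-flip permutation test gave p = 0.031, the smallest that 6 libraries can give. The value adjusted over 2 pairs was the same, but the other pair was Pdgfa and Pdgfb, whose direction the detection limit fixed. The adjustment therefore carries no weight. The ratio was lowest in Ctl MSC 1, where Pdgfra was highest. With the longest transcript as length, the ratio was 2.20 to 7.01.

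By mean log2 TPM the order in Ctl MSC was Pdgfrb, Pdgfc, Pdgfra, Pdgfa and Pdgfd, with Pdgfb not detectable. Pdgfrb and Pdgfc did not overlap, while the ranges of Pdgfc and Pdgfra, and of Pdgfra and Pdgfa, did, because of Ctl MSC 1. Pdgfra stood above Pdgfc and Pdgfa in Ctl MSC 1 only, and below both in Ctl MSC 2 and 3. The place of Pdgfra before Pdgfa in the Ctl MSC order therefore rests on Ctl MSC 1. Pdgfa and Pdgfd did not overlap. In MSC-TPr the order was Pdgfd, Pdgfrb, Pdgfc, Pdgfa and Pdgfra. There Pdgfd (73.1 to 165 TPM) and Pdgfrb (83.2 to 198 TPM) overlapped, as did Pdgfa and Pdgfra. Pdgfd stood above Pdgfrb in MSC-TPr 2 only, and Pdgfra above Pdgfa in MSC-TPr 3 only. Among the 16615 genes with a length and at least 1 read, the mean TPM of Pdgfd was at percentile 44.5 in the Ctl MSC libraries, against 91.4 in MSC-TPr, and that of Pdgfrb at 94.7 and 91.3.

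**Figure D4:**
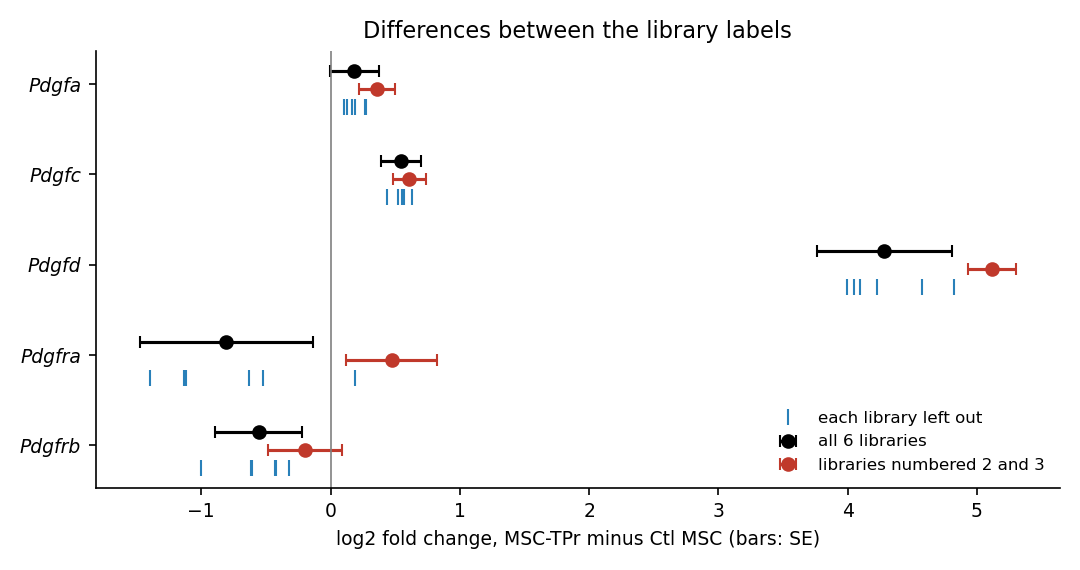
Log2 fold change (x axis, MSC-TPr minus Ctl MSC, edgeR, bars SE) of the 5 PDGF genes that passed the filter, over all 6 libraries (black), over the libraries numbered 2 and 3 (red) and with 1 library omitted at a time (blue ticks). Pdgfd lies at 4.0 to 5.12 in all of them, while Pdgfra runs from -1.40 to 0.47 and crosses 0.

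The members were then set beside the cell division level of each library. In the libraries with the high level, Pdgfra and Pdgfrb measured 188 and 328 CPM in Ctl MSC 1, against 40.2 and 155 CPM in MSC-TPr 2 and 90.5 and 296 CPM in MSC-TPr 3. In the libraries with the low level, Pdgfra measured 48.1 and 46.4 CPM in Ctl MSC 2 and 3 against 30.7 CPM in MSC-TPr 1, and Pdgfrb 260 and 258 CPM against 125 CPM. At either level the Ctl MSC libraries were thus the higher ones for both receptor genes. With the cell division level as a covariate, the log2 fold change was -1.08 (SE 0.302) for Pdgfra and -0.79 (SE 0.253) for Pdgfrb. The same fit gave 0.10 (SE 0.139) for Pdgfa and 0.51 (SE 0.139) for Pdgfc. Each label holds libraries of both levels, 1 of them alone in its level, and the part of cell division in these values was not tested.

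**Figure D5:**
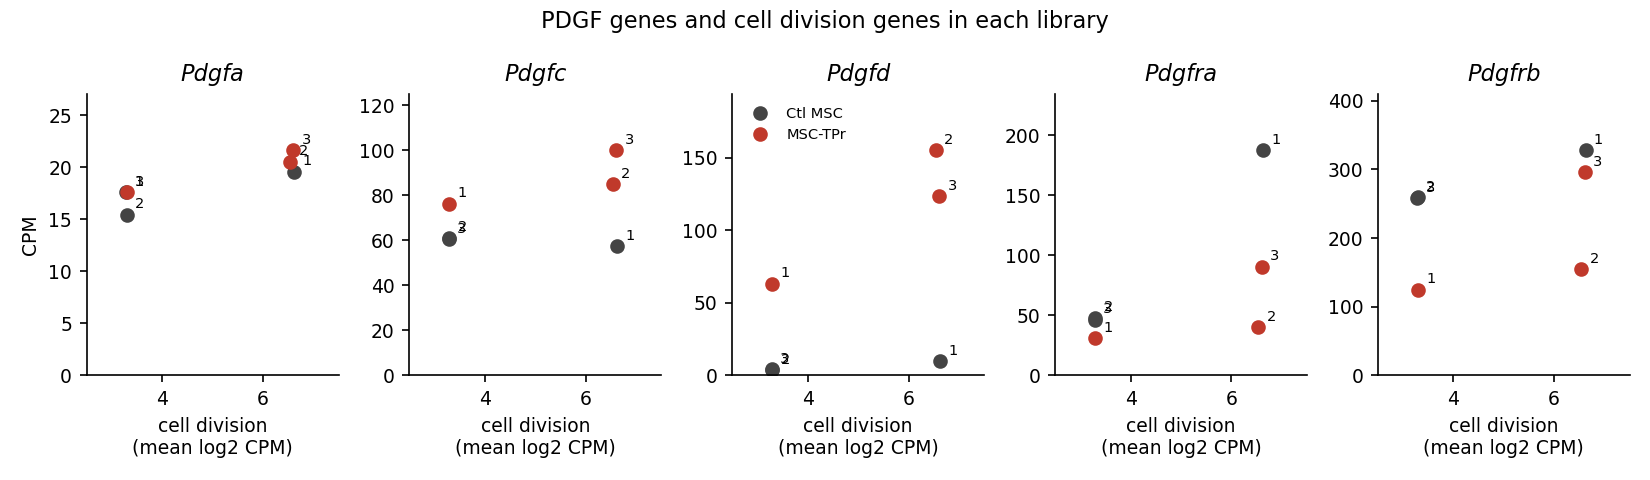
CPM (y axis, linear from 0) of 5 PDGF genes against the level of 20 cell division genes in log2 CPM (x axis, averaged on the log2 scale) in Ctl MSC (grey) and MSC-TPr (red), with the library number beside each point. The libraries form a low set (3.28 to 3.29) and a high set (6.54 to 6.62), each with both labels, and in both sets Pdgfd and Pdgfc are higher, and Pdgfra and Pdgfrb lower, in MSC-TPr.

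Genes around PDGF signalling were followed in 8 lists written from general knowledge, 83 genes in all, of which 75 were tested. Over all 6 libraries 0 of them were called higher and 0 lower by edgeR, while 10 of 75 (13.3%) had an unadjusted p under 0.05, against 15.04% of all genes tested. DESeq2 called 1 higher and 1 lower, the latter being Pik3r1 (log2 fold change -0.85, DESeq2 adjusted p = 0.049). Over the libraries numbered 2 and 3, edgeR called 20 of 76 higher and 12 lower, which is 26.3% and 15.8% of them, beside 20.6% and 19.4% of all genes. The median log2 fold change of all lists was 0.02 over 6 libraries and 0.07 over 4, beside 0.01 and 0.00 for all genes tested. In 7 listed genes MSC-TPr lay above Ctl MSC without overlap and in 5 below, 9.33% and 6.67% of those tested, beside 10.6% and 12.1% of all genes.

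Ligand release was followed through a list of 8 genes, mostly proteases, of which 6 were tested and 0 were called over 6 libraries. Plau, which encodes the urokinase that can activate PDGF-D, measured 87.2, 7.21 and 7.67 CPM in libraries 1, 2 and 3 of Ctl MSC, against 2.55, 45.8 and 47.9 CPM in those of MSC-TPr. Plat, which encodes the tissue plasminogen activator that cuts PDGF-C, measured 45.1, 3.69 and 3.14 CPM and 4.37, 42.6 and 50.7 CPM in the same order. Both were high in the 3 libraries with the high cell division level and low in the other 3. Pcsk6, a proprotein convertase, had the lowest log2 fold change of the list (-0.34, SE 0.588, edgeR adjusted p = 0.830). St14, which encodes matriptase, another protease that cuts PDGF-D, had at most 0.0552 CPM. Over the libraries numbered 2 and 3, 3 of 6, Plat and Plau among them, were called higher and 0 lower, with a list median of 1.41, where 20.6% of all genes were called higher. For Plau the direction turned with the model: its log2 fold change was -0.08 over 6 libraries, 2.66 over the libraries numbered 2 and 3, and -1.10 with the cell division covariate, where it was called lower (edgeR adjusted p = 0.0091).

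Co-receptors and binding proteins gave 0 calls of 4 over 6 libraries. Nrp1, a co-receptor reported to take part in PDGF signalling, measured 58.4 to 68.0 CPM in the Ctl MSC libraries, against 65.3 to 74.2 CPM in MSC-TPr. Lrp1, which associates with PDGFRβ, was lowest in log2 fold change (-0.26, SE 0.372, edgeR adjusted p = 0.791). Sparc, which encodes a matrix protein that binds PDGF-B, was highest (0.60, SE 0.543, edgeR adjusted p = 0.655). Sparc and Thbs1 were called higher over the libraries numbered 2 and 3, and 0 lower, beside 20.6% and 19.4% of all genes. The log2 fold change of Thbs1 was 1.87 there, but -0.02 over all 6 libraries.

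Of the 17 receptor-proximal signalling genes, 0 were called over 6 libraries and the list median was 0.00. Pik3r1, which encodes the p85α subunit that docks PI3-kinase on activated PDGF receptors, had the lowest log2 fold change (-0.87, SE 0.234, edgeR adjusted p = 0.185). It measured 57.9, 61.0 and 61.1 CPM in the Ctl MSC libraries, against 35.9, 22.5 and 40.3 CPM in MSC-TPr, without overlap. Src, a kinase recruited to the receptors, had the highest (0.43, SE 0.138, edgeR adjusted p = 0.234) and also did not overlap. Over the libraries numbered 2 and 3, 4 of 17 (Shc1, Pik3r1, Pik3ca and Plcg1) were called lower and 0 higher, beside 19.4% and 20.6% of all genes.

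Of the 9 genes of the Ras-MAPK cascade, Hras1 had the highest log2 fold change (0.87, SE 0.289, edgeR adjusted p = 0.246) and Mapk3, which encodes the kinase ERK1, the lowest (-0.49, SE 0.157, edgeR adjusted p = 0.233). Over the libraries numbered 2 and 3, 2 genes including Hras1 were called higher, and 2 (Braf and Mapk3) lower. Of all genes, 20.6% were called higher and 19.4% lower there.

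Receptor down-regulation genes gave 0 calls of 11 over 6 libraries, with a list median of 0.31. Cblb, a ubiquitin ligase of activated receptors, had the highest log2 fold change (0.61, SE 0.274, edgeR adjusted p = 0.363), and Spry1, a Ras-MAPK inhibitor, the lowest (-0.44, SE 0.626, edgeR adjusted p = 0.793). Over the libraries numbered 2 and 3, 2 of 11 (Cblb and Ptpn1) were called higher and 1 (Spry1) lower. Beside them, 20.6% of all genes were called higher and 19.4% lower.

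Early response genes, which growth factors such as PDGF induce within hours, gave 0 calls of 18 over 6 libraries, with a list median of 0.22. Egr2 had the highest log2 fold change (1.91, SE 0.715, edgeR adjusted p = 0.285). The level of Egr2 was 0.725, 1.87 and 0.552 CPM in libraries 1, 2 and 3 of Ctl MSC, against 1.22, 5.09 and 5.61 CPM in those of MSC-TPr, with overlap. Fos had the lowest (-1.42, SE 0.459, edgeR adjusted p = 0.234), at 13.8, 51.7 and 27.6 CPM in the Ctl MSC libraries, against 11.8, 12.1 and 10.8 CPM in MSC-TPr, without overlap. The members of this list did not move one way: over the libraries numbered 2 and 3, 9 of 19 were called higher and 2, Fos and Fosb, lower, beside 20.6% and 19.4% of all genes. Ccl2, Ccl7 and Cxcl1 were among the 9, with log2 fold changes of 1.20, 1.19 and 1.05. Over all 6 libraries these were -1.22, -0.40 and -0.37. With the cell division covariate the same 3 chemokine genes were called lower by edgeR, with log2 fold changes of -2.16, -1.25 and -1.06. Ccl2, a chemokine gene first described as induced by PDGF, measured 155, 17.0 and 17.2 CPM in libraries 1, 2 and 3 of Ctl MSC, against 2.93, 44.7 and 33.6 CPM in those of MSC-TPr.

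The receptor kinases most like the PDGF receptors were close to absent. Kit had 0 reads in all 6 libraries and Flt3 at most 0.177 CPM, while Csf1r, the neighbour of Pdgfrb, reached at most 0.835 CPM. Their ligand genes were expressed, and Kitl, which encodes stem cell factor, was lowest in log2 fold change (-0.60, SE 0.271, edgeR adjusted p = 0.363), at 331 to 485 CPM in the Ctl MSC libraries, against 208 to 375 CPM in MSC-TPr. In the VEGF branch of the superfamily, Vegfa had the highest log2 fold change (0.15, SE 0.322, edgeR adjusted p = 0.860, and -0.03 over the libraries numbered 2 and 3) and Vegfc the lowest (-0.77, SE 0.321, edgeR adjusted p = 0.332). Of these lists 0 of 4 and 0 of 6 tested genes were called over 6 libraries. Over the libraries numbered 2 and 3, Csf1r was called higher, and Kitl and Flt3l lower, of the 4. Of the 6, Vegfd (listed as Figf) was called higher and Vegfb lower, beside 20.6% and 19.4% of all genes. The log2 fold change of Vegfd was 1.33 there and -0.56 over all 6 libraries. With the cell division covariate it was -1.46, called lower (edgeR adjusted p = 0.0058).

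The nearest tested genes on either side of Pdgfd had log2 fold changes below 0 over 6 libraries. Dync2h1, 550 kb to its right, measured 220, 495 and 449 CPM in the Ctl MSC libraries, against 173, 137 and 194 CPM in MSC-TPr (log2 fold change -1.21, SE 0.326, edgeR adjusted p = 0.185). Casp12, 796 kb to its left, gave -0.80 (SE 0.662, edgeR adjusted p = 0.617), but 0.50 over the libraries numbered 2 and 3. Glrb, 123 kb left of Pdgfc, gave -0.98 (SE 0.259, edgeR adjusted p = 0.183), opposite in sign to Pdgfc, and Ctso on its other side -0.54 (SE 0.318, edgeR adjusted p = 0.481). Around Pdgfa, Fam20c gave -0.22 and Prkar1b -1.17, and around Pdgfb, Cbx7 gave -0.74 and Rpl3 0.08. Around Pdgfra, Chic2 gave 0.17 and Kdr 0.08, and around Pdgfrb, Tcof1 gave 0.07 and Csf1r 0.98. The sign was turned over the libraries numbered 2 and 3 for Fam20c (0.07), Chic2 (-0.13) and Kdr (-0.77). None of these 12 neighbours was called over 6 libraries (edgeR).

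The members were also compared by pattern, as Pearson's r of log2 CPM over the 6 libraries, which share their label and cell division sets, so that r is a description. Pdgfd and Pdgfc had r = 0.910, Pdgfra and Pdgfrb r = 0.799, and Pdgfd and Pdgfrb r = -0.510. Among 10967 genes with a mean log2 CPM of at least 1, those most like Pdgfd included Cpsf2 (r = 0.998) and Mettl8 (0.997). Their change was far smaller than that of Pdgfd, as Cpsf2 measured 73.6 to 84.0 CPM in the Ctl MSC libraries, against 115 to 139 CPM in MSC-TPr. The genes most like Pdgfc were Acvr1 (0.998), Epb4.1l1 (0.997) and Sec24a (0.992), and those most like Pdgfa were Supt3 (0.995), Rsph3a (0.986) and Cd164 (0.985). Pdgfra was most like Prrx2 (0.996), Stat3 (0.993) and Mfn2 (0.993), and Pdgfrb most like Ankrd44 (0.997), Smad9 (0.992) and Hdac7 (0.985). Prrx2 measured 21.3, 5.93 and 5.30 CPM in the Ctl MSC libraries, against 3.54, 5.32 and 11.4 CPM in MSC-TPr.

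Markers of the cells the culture could hold were examined beside these values. Of 9 mesenchymal stromal markers, 8 had at least 3 reads in every library, and Thy1, which encodes CD90, had 1 read in Ctl MSC 1 and 0 elsewhere. The summed level of the list was 5057 to 12492 CPM in the Ctl MSC libraries, against 3813 to 19083 CPM in MSC-TPr. Pericyte and smooth muscle markers (8 genes) summed to 517 to 658 CPM in the Ctl MSC libraries, against 133 to 1210 CPM in MSC-TPr, mostly Acta2, while Rgs5, Cspg4 and Des stayed at or under 0.604 CPM. Macrophage markers (8 genes) summed to 11.2 to 14.5 CPM and 13.0 to 17.6 CPM, with Adgre1 (listed as Emr1) at 0 reads and Ptprc and Itgam at no more than 2 and 1 reads. Most of that sum came from Cd68, at 0.789 to 14.2 CPM, and Cd14, at 3.27 to 13.2 CPM, both detected in every library. Endothelial cells and platelets are known sources of PDGF-B. Endothelial markers (7 genes) summed to 1.27 to 6.20 CPM in the Ctl MSC libraries, against 2.41 to 24.7 CPM in MSC-TPr, of which Vwf held 21.4 CPM in MSC-TPr 1, with Tie1 at 0 reads and Cdh5 at no more than 1 read. Megakaryocyte and platelet markers (6 genes) summed to 3.09 to 5.62 CPM and 3.2 to 3.71 CPM, with Pf4 and Gp9 at 0 reads. This sum came mostly from Itga2b, at 1.76 to 3.38 CPM, and Gp1bb, at 0.332 to 2.42 CPM, both detected in every library. The groups overlapped in the summed level of each of these 5 lists, and 0 of their genes were called over 6 libraries. The sums hide single genes. Nt5e lay lower in MSC-TPr without overlap, at 11.4 to 20.2 CPM in Ctl MSC against 2.66 to 5.24 CPM. Notch3 lay higher without overlap, at 0.725 to 1.87 CPM in Ctl MSC against 2.66 to 10.7 CPM. Of all genes tested, 10.6% lay higher and 12.1% lower without overlap.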

How the data were processed

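The authors aligned RNA-seq reads to mm10 and obtained read numbers by Htseq-count. The deposited values are raw counts per gene symbol, without normalization. The submitters' processing notes name CASAVA 1.8.2, Trimmomatic 0.35 and TopHat2 2.1.0. The counting strand is not given in the sources used here. Rows that name no gene held 13.8% to 20.8% of the reads and were left out.

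Counts were analysed with edgeR 4.0.16 in R 4.3.3: TMM scaling, filterByExpr and a quasi-likelihood test of group without covariates, with Benjamini-Hochberg adjustment over all genes tested. SE is the size of the log2 fold change divided by the square root of F. DESeq2 1.42.0 was an alternative. Both were tested on simulated counts. CPM use the TMM-scaled library sizes. TPM use joined exon lengths of GENCODE M21 (23025 of 23420 symbols matched).

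Groups and replicate numbers came from the sample titles. Libraries sharing a number had deviations from the group means that correlated at -0.76, -0.59 and -0.60. Ctl MSC 1 and MSC-TPr 1 each stood apart from their label in cell division level, in opposite directions. These correlations therefore cannot decide whether the numbers pair the libraries. Within a group, no library was a copy of another (chi-square of at least 4.76 per gene). Ctl MSC 2 and 3 were the closest pair, at 4.76, against 50.0 for MSC-TPr 2 and 3. Pairs with a library numbered 1 gave 154 to 191. Ctl MSC 2 and 3 are the only controls in the fit over the libraries numbered 2 and 3. Libraries of different groups were not compared in this way. The members, lists and tests were chosen with earlier results of these data known. Named are the members, in each list the called genes and the highest and lowest log2 fold change, the transduced genes, the nearest tested neighbours, and the 3 genes most alike in pattern; others were named after their values were seen. Alternatives were other scalings and filters, the replicate block, a cell division covariate, the libraries numbered 2 and 3, and leaving out each library. Some genes that this rule names are not reported here.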

Additional observations from a re-analysis of the deposited data

How the results depend on the processing

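Pdgfd and Pdgfc were higher, and Pdgfrb lower, in MSC-TPr under every alternative run, while the sign of Pdgfra was not kept. The Pdgfra log2 fold change was 0.47 over the libraries numbered 2 and 3 and 0.19 without Ctl MSC 1, and it ran from -1.40 to 0.19 with each library left out. The libraries numbered 2 and 3 also moved Pdgfa to 0.36 and Pdgfd to 5.12. Genes called higher and lower over all 6 libraries numbered 3 and 48 with edgeR, 244 and 439 with DESeq2, 565 and 887 with the cell division covariate, and 2498 and 2356 over the libraries numbered 2 and 3. Requiring 10 counts in every library gave 29 lower, and leaving out each library in turn gave 0 to 11 higher and 0 to 105 lower. With the replicate block, 0 genes were called higher and 0 lower (776 at an unadjusted p under 0.05), and the log2 fold changes were 4.33 for Pdgfd and -0.59 for Pdgfra. The numbers are not known to pair the libraries. Genes of the PDGF lists called higher and lower were 2 and 6 with the covariate, 20 and 12 over the libraries numbered 2 and 3, and 1 and 1 with DESeq2. The cause of these differences was not tested. Pdgfrb minus Pdgfra was 3.01 on the log2 TPM scale over the libraries numbered 2 and 3 and 2.66 to 2.99 with each library left out, and Pdgfa minus Pdgfb 7.28 and 7.15 to 7.29. The latter is a lower bound, as Pdgfb is at its limit. Fewer than 6 libraries cannot reach p under 0.05 in the exact test of the former: the smallest values are 0.125 with 4 and 0.0625 with 5. Depth limits Pdgfb, where 3 reads are 0.139 to 0.181 CPM.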

Other observations

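Outside the lists, Pdgfrl, which encodes a PDGF receptor-like protein, was chosen after its values were seen. It measured 4.89, 0.908 and 0.993 CPM in libraries 1, 2 and 3 of Ctl MSC, against 0.277, 2.07 and 2.97 CPM in those of MSC-TPr, with log2 fold changes of -0.34 over 6 libraries and 1.42 over the libraries numbered 2 and 3. Mnx1, the tested gene with a log2 fold change above that of Pdgfd, had 0, 1 and 1 reads in Ctl MSC and 15, 14 and 23 reads in MSC-TPr, so its fold rests on few reads.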
